A study of Homo sapiens with 18 samples.

Results

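Small nucleolar RNA host genes are transcription units whose introns carry small nucleolar RNAs (snoRNAs), and most of them encode no known protein in their spliced RNA. The members were taken by name: every gene whose symbol is SNHG followed by a number, plus GAS5, ZFAS1, DANCR and EPB41L4A-AS1, which are host genes with other names. That rule found 32 genes among the 60483 gene identifiers of the deposited tables, of which 28 carry an SNHG symbol and 4 are the named additions. The libraries come from HAIR-M, a human marginal zone lymphoma (MZL) cell line, and compare cells given 5 nM copanlisib, an inhibitor of class I phosphoinositide 3-kinases (PI3K), with cells given its vehicle DMSO. Each agent was applied for 4, 8 or 12 h with 3 RNA-seq libraries a group, 18 in all, and all 6 groups are the same line, so that the results stand for 1 line and 1 dose. Nothing in the labels says whether the 3 libraries of a group are separate cultures, and the p-values then reflect the spread among these libraries, which may be technical.

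A host gene is read by RNA polymerase II and spliced, and its snoRNAs are cut out of the debranched introns while the joined exons leave as a separate RNA. Box C/D snoRNAs guide ribose methylation and box H/ACA snoRNAs guide pseudouridylation, mainly of ribosomal RNA, and scaRNAs guide the same changes on the spliceosomal RNAs of Cajal bodies. Many host genes start with a pyrimidine tract called the terminal oligopyrimidine (TOP) motif, which they share with ribosomal protein genes and through which mTORC1, a kinase complex downstream of PI3K, controls translation. The spliced RNA of several hosts, GAS5 among them, is a known substrate of nonsense-mediated decay, so its amount depends on translation as well as on transcription.

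The starts of 12 members are shown because the pyrimidine tract lies there, and 9 of the 12 hold one near the RefSeq start and 3 do not. Each line runs 5′ to 3′ over 50 bases, 15 before the annotated start and 35 from it, in the RefSeq annotation of GRCh38.p14. Capitals mark a C followed by at least 4 bases that are each C or T, with that C within 10 bases of the annotated start. Where several Cs qualify the capitals begin at the C nearest the start, and lines with no capitals hold no such run there. The RefSeq start differs from that of GENCODE 29 for several members, among them GAS5 (173869045 and 173868882), SNHG1 and SNHG3. A line without capitals thus does not show that the RNA lacks a tract. SNHG4 (chr5:139274086-139274135, plus strand), SNHG12 (chr1:28581839-28581888, minus strand), SNHG17 (chr20:38435294-38435343, minus strand), SNHG16 (chr17:76557749-76557798, plus strand), SNHG3 (chr1:28505928-28505977, plus strand) and SNHG1 (chr11:62855851-62855900, minus strand) were lower with copanlisib at all 3 times.
SNHG4: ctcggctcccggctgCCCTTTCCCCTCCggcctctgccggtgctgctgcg
SNHG12: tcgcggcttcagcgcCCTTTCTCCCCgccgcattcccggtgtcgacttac
SNHG17: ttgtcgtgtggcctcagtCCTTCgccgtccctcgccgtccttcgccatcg
SNHG16: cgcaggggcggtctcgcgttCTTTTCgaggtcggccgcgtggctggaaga
SNHG3: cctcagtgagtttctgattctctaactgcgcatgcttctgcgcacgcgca
SNHG1: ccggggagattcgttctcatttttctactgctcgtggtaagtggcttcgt
The next 6 were lower at 4 h alone, higher at a later time or called at no time: SNHG19 (chr16:2155324-2155373, minus strand), SNHG32 (chr6:31834901-31834950, plus strand), SNHG5 (chr6:85678699-85678748, minus strand), ZFAS1 (chr20:49278627-49278676, plus strand), SNHG29 (chr17:16438972-16439021, plus strand) and GAS5 (chr1:173869011-173869060, minus strand).
SNHG19: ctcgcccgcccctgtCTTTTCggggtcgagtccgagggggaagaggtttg
SNHG32: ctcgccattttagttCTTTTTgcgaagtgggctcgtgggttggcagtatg
SNHG5: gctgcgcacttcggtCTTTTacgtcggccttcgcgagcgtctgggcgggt
ZFAS1: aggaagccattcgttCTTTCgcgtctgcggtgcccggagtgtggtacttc
SNHG29: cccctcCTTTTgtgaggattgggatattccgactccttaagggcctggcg
GAS5: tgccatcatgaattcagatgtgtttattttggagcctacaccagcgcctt

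Of the 28 members with a start in the RefSeq table, 17 (60.7%) held such a tract within 10 bases of the start, as did 33.5% of all 35116 promoter windows in the table. Within 3 bases the shares were 39.3% of members and 13% of all windows. With the C as the annotated first base of the RNA, as in SNHG4, SNHG12, SNHG19, SNHG32, SNHG5 and ZFAS1, they were 25% of members and 4.07% of all windows. CTTTT as the first 5 bases was found in 3 members (10.7%) and in 0.356% of all windows. CACGTG, the E-box that MYC and its relatives bind, which reads the same on both strands, was found in the 300-base windows (250 bases before the start and 50 from it) of 2 members (7.14%) and in 7.26% of all windows. These are matches of letters at annotated starts, and no start was mapped in these libraries.

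The libraries held 13590000 to 25570000 reads assigned to genes, with 22410 to 25380 genes detected. The library labels were checked against marker genes: all 6 B cell markers were present, with a summed level of 1308 to 2025 CPM (reads scaled by library size). Of the B cell markers 2, 4 and 5 were higher with copanlisib at 4, 8 and 12 h and 1 was lower at 4 h. The 6 T and NK cell markers summed to 7.62 to 17 CPM, nearly all of it NKG7 and with CD3D at 0 reads, and the 6 myeloid markers to 4.31 to 9.83 CPM. NKG7 was lower with copanlisib at 4 h and 12 h (−0.40 and −0.44 on the log2 scale), and was at −0.16, not called, at 4 h without copanlisib replicates 1 and 2. The part of either cell type's markers in the results was not tested. The extraction protocol in the labels speaks of retinas, while the 6 retina markers summed to 5.77 to 10.5 CPM, nearly all PDE6B, with RPE65 at 0 reads. The 4 h copanlisib replicates 1 and 2 stood apart from the other 16 libraries: 5.22% and 8.73% of their reads were unmapped, against 1.74 to 2.82%, and mitochondrial genes took 12.4% and 12.6% of gene reads, against 9.07 to 10.5%. A fit without those replicates is called the replicate 3 fit below. Many of the results that change call or move by over 1.5 times in it are also given from it. The lone 4 h copanlisib library is assumed there to vary like the libraries of the other groups. A result given from all 18 libraries alone may also have moved in the replicate 3 fit.

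Together the host genes took a smaller share of the gene reads in copanlisib libraries than in DMSO libraries. At 4 h that share was 0.165 to 0.168% with copanlisib and 0.181 to 0.191% with DMSO. At 8 h it was 0.161 to 0.169% with copanlisib and 0.169 to 0.172% with DMSO, and at 12 h it was 0.141 to 0.144% with copanlisib and 0.146 to 0.151% with DMSO. The groups did not overlap at any of the times, and at 8 h their ranges all but touched. In bulk RNA, fewer cells that express a gene and less RNA of it per cell cannot be told apart. One member, SNHG27, had no read in any library, SNHG18 and SNHG22 had too few for a test, and 29 members were tested among 16122 genes, 20 of them well measured, at a mean log2 CPM of 3 or more. Those that passed the filter on low counts did so on their counts in any of the 6 groups.

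Per kilobase of merged exon the host genes spanned a wide range in DMSO cells at 4 h. SNHG29 stood highest with 138 ± 3.5 CPM per kilobase (SD, n = 3), followed by SNHG8 with 84.8 ± 5.1, GAS5 with 66.2 ± 3.8 and SNHG19 with 54.2 ± 5.2. SNHG1 (43.1 ± 2.9) and SNHG6 (39.0 ± 2.0) followed, and then SNHG5 (34.3 ± 1.8), SNHG32 (32.9 ± 3.1) and ZFAS1 (32.7 ± 0.4), which did not differ from each other beyond their SDs, nor did SNHG3 (30.7 ± 1.6) and SNHG16 (29.6 ± 1.5). Lower in the order stood DANCR at 25.7 ± 1.6, SNHG17 at 15.8 ± 1.3, SNHG15 at 14.5 ± 1.1, SNHG7 at 7.13 ± 0.38 and EPB41L4A-AS1 at 7.06 ± 0.37, of which SNHG17 and SNHG15, and SNHG7 and EPB41L4A-AS1, did not differ beyond their SDs. SNHG12 stood at 5.52 ± 0.09, SNHG4 at 3.896 ± 0.366, SNHG11 at 3.03 ± 0.53 and SNHG20 at 2.26 ± 0.12 CPM per kilobase. These levels rest on exon lengths of GENCODE 29, and the transcript that HAIR-M cells use was not measured.

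The comparison with DMSO asks how the PI3K inhibitor moved each host gene at each time. Copanlisib lowered 12 members and raised 1 at 4 h, where 20.7% of all tested genes were lower and 17.7% higher (edgeR quasi-likelihood test, adjusted p under 0.05). The median log2 fold change of the 29 tested members was −0.22, and that of all tested genes was 0.0095. In the replicate 3 fit, 9 members were lower and 1 higher at 4 h, with a median of −0.14, against 13.1% and 10.4% of all genes. At 8 h, 8 members were lower and 1 was higher, against 18.3% and 14.8% of all genes, with a median of −0.03 for the members and 0.02 for all genes. Without copanlisib replicate 3 of 8 h, the members' median at 8 h was 0.018. At 12 h, 8 were lower and 2 higher, against 16.5% and 13.8% of all genes, with a median of −0.11 for the members and 0.0044 for all genes.

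SNHG1, SNHG3, SNHG4, SNHG12, SNHG15, SNHG16 and SNHG17 were the 7 members lower at all 3 times, a pattern shown by 8.32% of the genes tested. The same 7 were lower at all 3 times in the replicate 3 fit, where 9.43% of genes showed the pattern, and their 4 h values in that fit lay between −0.89 (SNHG15) and −0.25 (SNHG16). GAS5, SNHG7, SNHG8, SNHG19 and SNHG32 were lower at 4 h and called at no other time, as were 8.5% of genes. That pattern depended on the fit: in the replicate 3 fit SNHG8 was lower at 8 h and 12 h and not called at 4 h, GAS5 and SNHG7 were lower at 12 h as well as 4 h, and SNHG32 was higher at 8 h. DANCR was lower at 8 h and 12 h. Of the remaining members, SNHG29 rose at 8 h and 12 h, SNHG5 at 12 h and SNHG14 at 4 h, and 13 were called at no time, as were 41.6% of all genes.

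**Figure D1:**
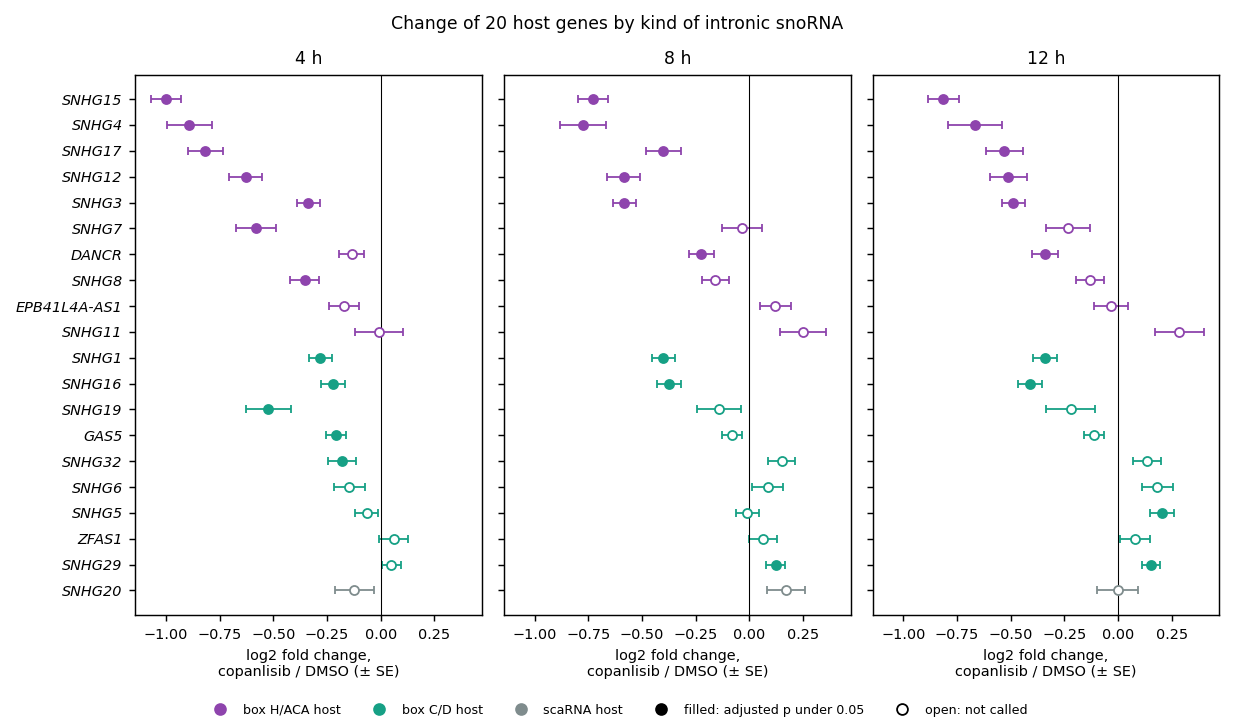
Log2 fold change (copanlisib over DMSO) of the 20 well-measured host genes (mean log2 CPM of 3 or more) at 4, 8 and 12 h, with SE bars; purple marks box H/ACA hosts, green box C/D hosts and grey the scaRNA host, and filled points have an edgeR adjusted p under 0.05. SNHG15, SNHG4, SNHG17, SNHG12 and SNHG3 lie left of 0 in every panel, while SNHG29 lies right of 0 at 8 h and 12 h.

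The members that host box H/ACA snoRNAs held the largest decreases among the 20 well-measured hosts. SNHG15 (chr7:44983023-44986961, minus strand in GENCODE 29), which carries SNORA9, was at 27.1, 24.5 and 28.3 CPM in copanlisib libraries at 4 h, against 48.5, 54.8 and 55.8 CPM in DMSO libraries. At 8 h its copanlisib libraries held 23.0, 24.8 and 27.0 CPM, against 42.1, 38.8 and 43.3 CPM in DMSO, and at 12 h 24.3, 24.2 and 23.0 CPM, against 40.9, 43.7 and 41.1 CPM in DMSO. Every copanlisib library lay below every DMSO library of its time, and the copanlisib levels were much the same at the 3 times. It changed by −0.998 ± 0.07 on the log2 scale at 4 h (SE, edgeR adjusted p = 3.1e-11), −0.73 ± 0.07 at 8 h (1.1e-08) and −0.81 ± 0.07 at 12 h (3.2e-09).

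SNHG17 (chr20:38420588-38435353, minus strand) carries 4 copies of SNORA71, and the same snoRNA family continues in its neighbour SNHG11. At 4 h it was at 33.8, 33.6 and 45.7 CPM in copanlisib libraries, against 64.5, 62.0 and 72.1 CPM in DMSO libraries. At 8 h its copanlisib values were 36.6, 38.5 and 37.1 CPM, against 51.2, 49.2 and 47.3 CPM in DMSO, and at 12 h they were 28.6, 28.5 and 27.4 CPM, against 40.6, 41.2 and 40.2 CPM in DMSO. The groups did not overlap at any time, and at 4 h replicate 3 with copanlisib lay between the other copanlisib libraries and DMSO. The log2 fold changes were −0.82 ± 0.08, −0.40 ± 0.08 and −0.53 ± 0.09 at 4, 8 and 12 h (edgeR adjusted p = 1.1e-08, 0.00038 and 3.1e-05). The 4 h value was −0.52 in the replicate 3 fit.

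SNHG4 (chr5:139274102-139284899, plus strand) carries SNORA74A and SNORA74D and was the least abundant of the strongly lowered hosts. Its copanlisib libraries held 9.46, 8.55 and 10.4 CPM at 4 h, against 15.5, 18.6 and 18.1 CPM in DMSO libraries. At 8 h they held 7.71, 8.94 and 7.53 CPM, against 12.0, 14.5 and 15.4 CPM in DMSO, and at 12 h 5.42, 6.71 and 5.86 CPM, against 9.53, 10.4 and 8.58 CPM in DMSO. All copanlisib libraries lay below all DMSO libraries at each time, with log2 fold changes of −0.89 ± 0.11, −0.77 ± 0.11 and −0.67 ± 0.13 (edgeR adjusted p = 2.2e-07, 3.3e-06 and 0.00019). SNHG4 shares 626 exon bases with MATR3 on the same strand. Of the 2 identifiers of MATR3, which encodes a nuclear matrix protein, 1 was lower at 8 h (−0.67 ± 0.20, edgeR adjusted p = 0.010) and neither was called at 4 h or 12 h.

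SNHG12 (chr1:28578538-28583132, minus strand) holds SNORA16A, SNORA44 and SNORA61 beside the box C/D gene SNORD99. Its copanlisib libraries held 14.1, 15.9 and 15.7 CPM at 4 h, against 23.4, 24.0 and 23.2 CPM in DMSO libraries. At 8 h the copanlisib values were 14.9, 14.97 and 13.3 CPM, against 20.4, 22.6 and 21.7 CPM in DMSO, and at 12 h 11.04, 13.1 and 11.2 CPM, against 16.6, 17.4 and 16.2 CPM in DMSO. The groups stayed apart at all 3 times, with log2 fold changes of −0.63 ± 0.08, −0.58 ± 0.08 and −0.51 ± 0.08 (edgeR adjusted p = 3.8e-07, 1.2e-06 and 3.4e-05).

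SNHG3 (chr1:28505980-28510892, plus strand), host of SNORA73A and SNORA73B, was at 101, 98.1 and 99.5 CPM in copanlisib libraries at 4 h, against 119, 132 and 125 CPM in DMSO libraries. At 8 h its copanlisib values were 72.9, 70.1 and 75.2 CPM, against 105, 107 and 115 CPM in DMSO, and at 12 h 59.5, 65.8 and 66.6 CPM, against 86.6, 88.3 and 93.9 CPM in DMSO. No copanlisib library reached a DMSO library of its time, with log2 fold changes of −0.34 ± 0.05, −0.58 ± 0.05 and −0.49 ± 0.06 (edgeR adjusted p = 1.5e-05, 3.7e-09 and 1.5e-07). SNHG3 shares 242 exon bases on the same strand with RCC1, the nucleotide exchange factor of the RAN GTPase, which was lower too (−0.24, −0.36 and −0.39). Reads over these shared bases count as ambiguous and for neither gene, if the annotation used for counting holds the overlap.

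Of the other box H/ACA hosts, SNHG7 and SNHG8 were lower at 4 h. SNHG7, host of SNORA17A and SNORA17B, was at 17.8, 19.3 and 25.4 CPM in copanlisib libraries at 4 h, against 30.3, 29.9 and 32.9 CPM in DMSO libraries. Replicate 3 was the highest of the copanlisib libraries and still lay below DMSO. The log2 fold change was −0.58 ± 0.09 (edgeR adjusted p = 1.9e-05), or −0.27 (adjusted p = 0.026) in the replicate 3 fit. At 8 h and 12 h SNHG7 was at −0.03 ± 0.09 and −0.23 ± 0.10 and was not called, but the 12 h value was called in the replicate 3 fit (adjusted p = 0.016) and with the 6 libraries of 12 h alone (0.015). SNHG8, host of SNORA24, averaged 61.1 ± 5.7 CPM with copanlisib and 78.3 ± 4.7 CPM with DMSO at 4 h (SD, n = 3 each), a change of −0.35 ± 0.07 on the log2 scale (edgeR adjusted p = 0.00012). It was −0.19 (adjusted p = 0.053) in the replicate 3 fit, and at 8 h and 12 h it was −0.16 ± 0.06 and −0.13 ± 0.07, not called with all 18 libraries. Those later values were called lower in the replicate 3 fit (adjusted p = 0.0096 and 0.043) and with the 6 libraries of each time alone (0.0021 and 0.022).

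DANCR (chr4:52712404-52720351, plus strand), host of SNORA26 and described as a restraint on the differentiation of progenitor cells, was called lower at 8 h and 12 h. Copanlisib libraries held 54.5, 50.2 and 55.6 CPM at 4 h, against 62.9, 56.2 and 57.2 CPM in DMSO libraries. At 8 h they held 51.4, 47.1 and 49.1 CPM, against 56.6, 57.1 and 58.7 CPM in DMSO, and at 12 h 45.3, 49.4 and 44.4 CPM, against 57.4, 57.2 and 61.1 CPM in DMSO. The groups were apart at all 3 times, narrowly at 4 h, and copanlisib levels were lowest at 12 h while DMSO levels were flat. The log2 fold changes were −0.13 ± 0.06 (edgeR adjusted p = 0.074), −0.22 ± 0.06 (0.0042) and −0.34 ± 0.06 (7.6e-05). Over the alternatives other than leaving out a single library, the 4 h value ranged from −0.15 to −0.06. The copanlisib effect at 12 h minus that at 4 h was −0.21 and was not called with all 18 libraries.

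EPB41L4A-AS1, host of SNORA13, and SNHG11, host of SNORA60 and SNORA71E, were called at no time with all 18 libraries. EPB41L4A-AS1 averaged 21.0 ± 0.7, 19.5 ± 1.1 and 13.5 ± 1.2 CPM with copanlisib at 4, 8 and 12 h, against 23.6 ± 1.2, 17.9 ± 0.5 and 13.8 ± 0.2 CPM with DMSO (SD over 3 libraries). It was at −0.17 ± 0.07 (edgeR adjusted p = 0.055), 0.12 ± 0.07 and −0.03 ± 0.08 on the log2 scale, and its level was lower at 12 h than at 4 h with either agent. The gene lies antisense to EPB41L4A, and 12.4% of the reads over its exons came from the opposite strand. SNHG11 was at 8.61 ± 0.58, 10.7 ± 0.9 and 9.49 ± 0.62 CPM with copanlisib, against 8.51 ± 1.5, 8.95 ± 0.97 and 7.76 ± 0.16 CPM with DMSO. Its log2 fold changes were −0.01 ± 0.11, 0.25 ± 0.11 and 0.28 ± 0.11 (edgeR adjusted p = 0.97, 0.075 and 0.061). SNHG11 was called higher at 8 h and 12 h in the replicate 3 fit (adjusted p = 0.035 at both times) and with the 6 libraries of each time alone (0.036 and 0.028).

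**Figure D2:**
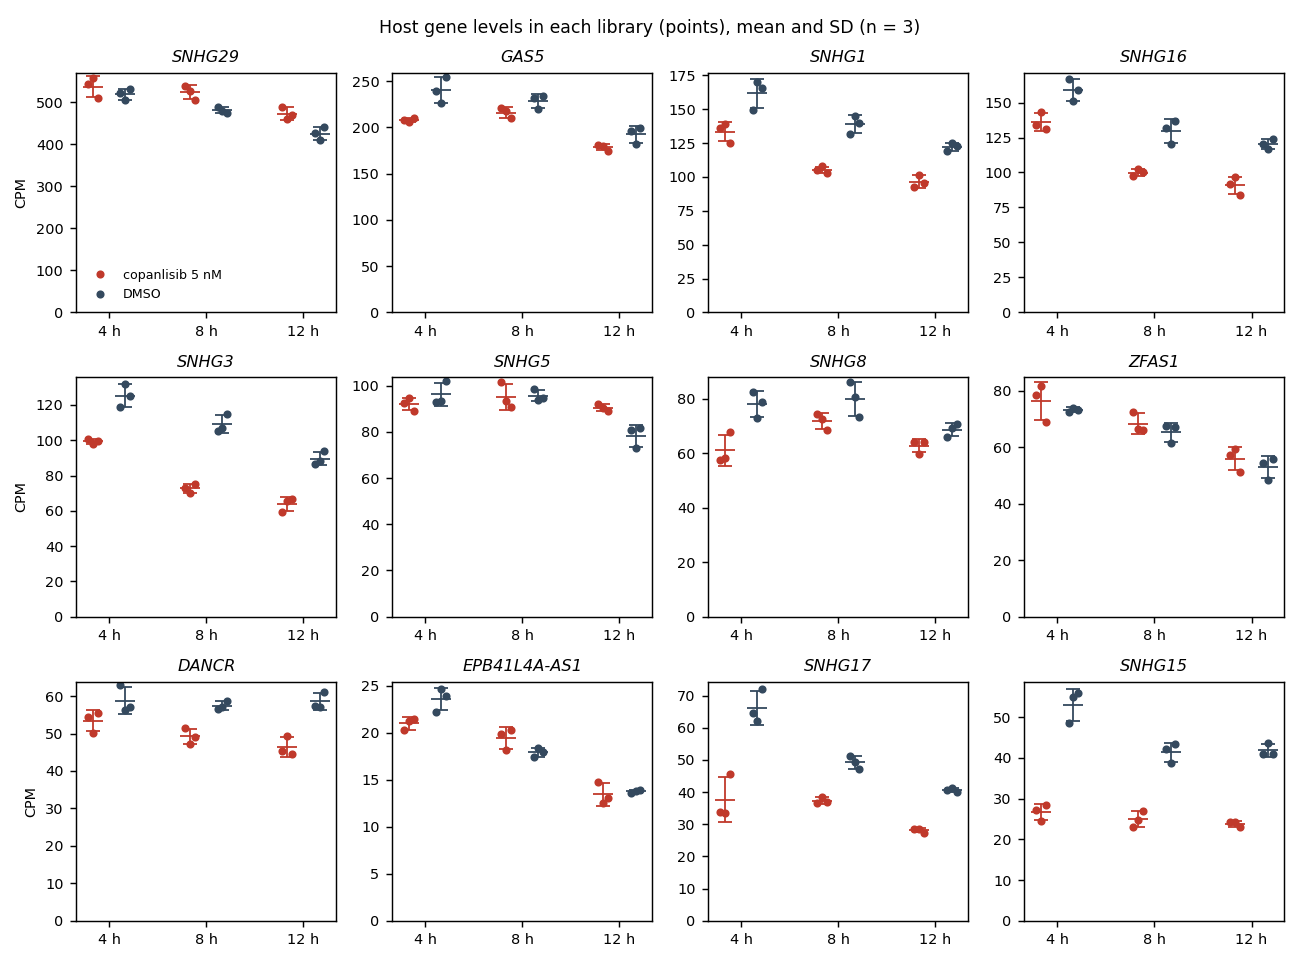
CPM of 12 host genes in each library, with copanlisib in red at the left of each pair and DMSO in dark blue at the right, for 4, 8 and 12 h; points are libraries, and the bars show the mean and SD of 3. SNHG15, SNHG17, SNHG3, SNHG1 and SNHG16 lie apart at all 3 times, while the ZFAS1 groups overlap.

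Among the box C/D hosts, SNHG1 and SNHG16 were lower throughout. SNHG1 (chr11:62851988-62855914, minus strand) carries 8 box C/D snoRNAs between SNORD22 and SNORD31. Its copanlisib libraries held 136, 139 and 125 CPM at 4 h, against 150, 170 and 166 CPM in DMSO libraries. At 8 h they held 105, 108 and 103 CPM, against 132, 145 and 140 CPM in DMSO, and at 12 h 92.7, 102 and 95.7 CPM, against 119, 125 and 123 CPM in DMSO. All copanlisib libraries were below all DMSO libraries of their time, by −0.28 ± 0.05, −0.40 ± 0.05 and −0.34 ± 0.05 on the log2 scale (edgeR adjusted p = 0.00014, 1.5e-06 and 2.3e-05).

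SNHG16 (chr17:76557766-76565348, plus strand), host of SNORD1A, SNORD1B and SNORD1C, was at 134, 143 and 131 CPM in copanlisib libraries at 4 h, against 167, 151 and 159 CPM in DMSO libraries. At 8 h it was at 97.2, 102 and 100 CPM with copanlisib, against 132, 121 and 137 CPM with DMSO, and at 12 h at 91.9, 96.4 and 83.9 CPM with copanlisib, against 120, 117 and 124 CPM with DMSO. The groups did not overlap, the gap was narrowest at 4 h, and the log2 fold changes were −0.22 ± 0.05, −0.38 ± 0.06 and −0.41 ± 0.06 (edgeR adjusted p = 0.0021, 6.9e-06 and 2.9e-06). The 4 h value was −0.07 (adjusted p = 0.33) in the counts that ignore strand, which held 30.1% of the stranded count of this gene.

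GAS5 (chr1:173863900-173868882, minus strand), named for its accumulation in growth-arrested cells, carries 10 box C/D snoRNAs and SNORA103. Its copanlisib libraries held 208, 206 and 210 CPM at 4 h, against 239, 227 and 255 CPM in DMSO libraries. At 8 h they held 221, 218 and 210 CPM, against 231, 220 and 234 CPM in DMSO, and at 12 h 181, 180 and 175 CPM, against 196, 182 and 200 CPM in DMSO. The groups were apart at 4 h, overlapped at 8 h and were barely apart at 12 h. Copanlisib changed GAS5 by −0.21 ± 0.05 (edgeR adjusted p = 0.00078) on the log2 scale at 4 h, and later it was at −0.08 ± 0.05 (0.19) and −0.11 ± 0.05 (0.074). The 4 h value was −0.18 (adjusted p = 0.015) in the replicate 3 fit, where the 12 h value was called too (0.023). With the 6 libraries of each time alone GAS5 was called lower at 8 h and 12 h (adjusted p = 0.027 and 0.015).

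SNHG19, host of SNORD60, averaged 12.9 ± 1.8 CPM with copanlisib and 18.5 ± 1.8 CPM with DMSO at 4 h (SD, n = 3 each). The log2 fold change was −0.52 ± 0.10 (edgeR adjusted p = 0.00027), or −0.29 (adjusted p = 0.084) in the replicate 3 fit. At 8 h and 12 h it was at −0.14 ± 0.10 and −0.22 ± 0.11 and was not called. SNHG32, host of SNORD48 and SNORD52, averaged 52.5 ± 1.9 CPM with copanlisib and 59.2 ± 5.5 CPM with DMSO at 4 h, where the groups overlapped (−0.18 ± 0.06, edgeR adjusted p = 0.031). It was −0.10 (adjusted p = 0.37) in the replicate 3 fit, and without DMSO replicate 3 of 4 h it was −0.11 (adjusted p = 0.23). At 8 h and 12 h SNHG32 was at 0.15 ± 0.06 and 0.14 ± 0.07, not called, but it was called higher at 8 h in the replicate 3 fit (adjusted p = 0.018) and at both times with the 6 libraries of each time alone (0.014 and 0.046).

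SNHG29 and SNHG5 were the box C/D hosts that rose. SNHG29 (chr17:16438822-16478678, plus strand), host of SNORD49A, SNORD49B and SNORD65, held 544, 557 and 510 CPM in copanlisib libraries at 4 h, against 521, 505 and 530 CPM in DMSO libraries. At 8 h its copanlisib values were 539, 526 and 506 CPM, against 489, 479 and 475 CPM in DMSO, and at 12 h 489, 460 and 469 CPM, against 426, 409 and 441 CPM in DMSO. The groups overlapped at 4 h, and at 8 h and 12 h every copanlisib library lay above every DMSO library. On the log2 scale it was at 0.05 ± 0.04 (edgeR adjusted p = 0.38), 0.12 ± 0.04 (0.028) and 0.15 ± 0.04 (0.0073). In the counts that ignore strand, which held 46.9% of its stranded count, it was not called at 8 h (adjusted p = 0.057). The call at 8 h was also lost without copanlisib replicate 1 or 2 or DMSO replicate 2 or 3 of that time (adjusted p = 0.13, 0.074, 0.055 and 0.065), and the call at 12 h without DMSO replicate 2 of that time (0.054).

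SNHG5 (chr6:85660950-85678748, minus strand), host of SNORD50A and SNORD50B and known from a chromosomal breakpoint in a B cell lymphoma, held 92.3, 94.6 and 89.2 CPM in copanlisib libraries at 4 h, against 93.0, 93.5 and 102 CPM in DMSO libraries. At 8 h it held 101, 93.5 and 90.6 CPM with copanlisib, against 98.6, 93.9 and 94.6 CPM with DMSO, and at 12 h 91.9, 90.4 and 89.1 CPM with copanlisib, against 80.7, 72.9 and 81.5 CPM with DMSO. The groups overlapped at 4 h and 8 h and separated at 12 h, when the DMSO libraries were lower than before and the copanlisib libraries were not. The log2 fold changes were −0.06 ± 0.05, −0.01 ± 0.05 and 0.21 ± 0.05 (edgeR adjusted p = 0.37, 0.91 and 0.0049). The 12 h value was 0.15 (adjusted p = 0.051) without DMSO replicate 2 of that time.

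ZFAS1, the host of SNORD12, SNORD12B and SNORD12C that lies antisense to ZNFX1, averaged 76.4 ± 6.6, 68.3 ± 3.7 and 55.97 ± 4.1 CPM with copanlisib at 4, 8 and 12 h, against 73.3 ± 0.8, 65.3 ± 3.4 and 52.9 ± 3.9 CPM with DMSO (SD over 3 libraries). The groups overlapped at each time, and the differences of 0.06 ± 0.07, 0.06 ± 0.07 and 0.08 ± 0.07 were not called. SNHG6, host of SNORD87, averaged 43.8 ± 2.2, 47.5 ± 5.2 and 48.5 ± 2.2 CPM with copanlisib, against 48.6 ± 2.5, 44.6 ± 2.2 and 42.6 ± 3.4 CPM with DMSO. Its log2 fold changes of −0.15 ± 0.07, 0.09 ± 0.07 and 0.18 ± 0.07 were not called either (edgeR adjusted p = 0.11, 0.38 and 0.059), but the 12 h value was called in the replicate 3 fit (0.016) and with the 6 libraries of 12 h alone (0.0079).

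SNHG20, host of SCARNA16, was the scaRNA host among the 20, at 12.7 ± 1.5, 14.1 ± 1.4 and 10.7 ± 0.3 CPM with copanlisib, against 13.7 ± 0.8, 12.5 ± 0.3 and 10.7 ± 0.4 CPM with DMSO, and it was called at no time. Of the other 9 tested members, those with an average log2 CPM under 3, SNHG14 alone was called. SNHG14, a long transcript of the imprinted region on chromosome 15 that runs antisense to UBE3A, had 32, 21 and 17 reads in copanlisib libraries at 4 h, against 13, 13 and 9 reads in DMSO libraries. As CPM the groups overlapped, and the log2 fold change was 0.78 ± 0.31 (edgeR adjusted p = 0.048). That call was lost under most alternatives (adjusted p = 0.10 by DESeq2), and the value was 0.43, not called, in the replicate 3 fit. Of the reads over the exons of SNHG14, 86.4% came from the opposite strand. SNHG9, SNHG10, SNHG21, SNHG25, SNHG26, SNHG28, SNHG30 and SNHG31 were not called in the fit with all 18 libraries, with log2 fold changes from −0.74 to 0.47 at 4 h. SNHG30, host of SNORD7, was called higher in the replicate 3 fit at 4 h (0.44, adjusted p = 0.018) and at 8 h (0.27, 0.026).

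The 20 well-measured hosts were divided by the kind of snoRNA that RefSeq places inside them, a division made after their values were seen and given as a description. Of 10 box H/ACA hosts, 7, 6 and 6 were lower and none higher at 4, 8 and 12 h, with median log2 fold changes of −0.47, −0.31 and −0.41, where 20.7%, 18.3% and 16.5% of all genes were lower and 17.7%, 14.8% and 13.8% higher. Of 9 box C/D hosts, 5, 2 and 2 were lower and 0, 1 and 2 higher, with medians of −0.18, −0.01 and 0.08. In the replicate 3 fit, 6 box H/ACA hosts and 3 box C/D hosts were lower at 4 h, with medians of −0.30 and −0.13, against 13.1% of all genes. The 18 of them with a start sequence, which leaves out SNHG15 and SNHG6, were also divided by whether the pyrimidine tract begins at the annotated first base. The 6 with it had medians of −0.35, −0.08 and −0.07, and the 12 without it −0.22, −0.12 and −0.18. SNHG4 and SNHG12, which start with the longest tracts of those printed above, were lower at all 3 times, whereas ZFAS1 and SNHG5, which also start on one, were called lower at none.

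Whether the copanlisib effect itself differed between times was tested as an interaction. Between 12 h and 4 h the effect differed for 3 members, all upward, against 8.98% of all genes upward and 7.69% downward. SNHG5 was at 0.21 at 12 h and −0.06 at 4 h, a difference of 0.27 ± 0.08 (edgeR adjusted p = 0.017). SNHG32 was at 0.14 at 12 h and −0.18 at 4 h, a difference of 0.31 ± 0.09 (adjusted p = 0.022), and SNHG6 was at 0.18 at 12 h and −0.15 at 4 h, a difference of 0.33 ± 0.10 (adjusted p = 0.028). No other member passed in that test, so the calls at 4 h alone of GAS5, SNHG7, SNHG8 and SNHG19 do not show a difference between 12 h and 4 h. Over all 3 times together 4 members passed (SNHG5, SNHG7, SNHG17 and SNHG32), against 18.6% of all genes.

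These interactions depended on the 4 h libraries. In the replicate 3 fit SNHG5 was the single member with a higher effect at 12 h (0.30, edgeR adjusted p = 0.016), and DANCR passed in the other direction (−0.29, adjusted p = 0.040). In that fit SNHG32 was at 0.24 (adjusted p = 0.15), SNHG6 at 0.31 (0.072), SNHG7 at 0.04 (0.91) and SNHG17 at −0.01 (0.97). Without copanlisib replicate 3 of 4 h, which leaves the replicates 1 and 2 that stood apart, 10 members passed upward between 12 h and 4 h. In that fit 14 passed over the 3 times. Without DMSO replicate 3 of 4 h none passed in either test, and without copanlisib replicate 2 of 4 h 1 passed in each. Upward between 12 h and 4 h, 1 passed without DMSO replicate 1 of 12 h and 0 without DMSO replicate 2 of 12 h. The shares of all genes called in these fits are not given here, so these counts do not set the members apart.

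**Figure D3:**
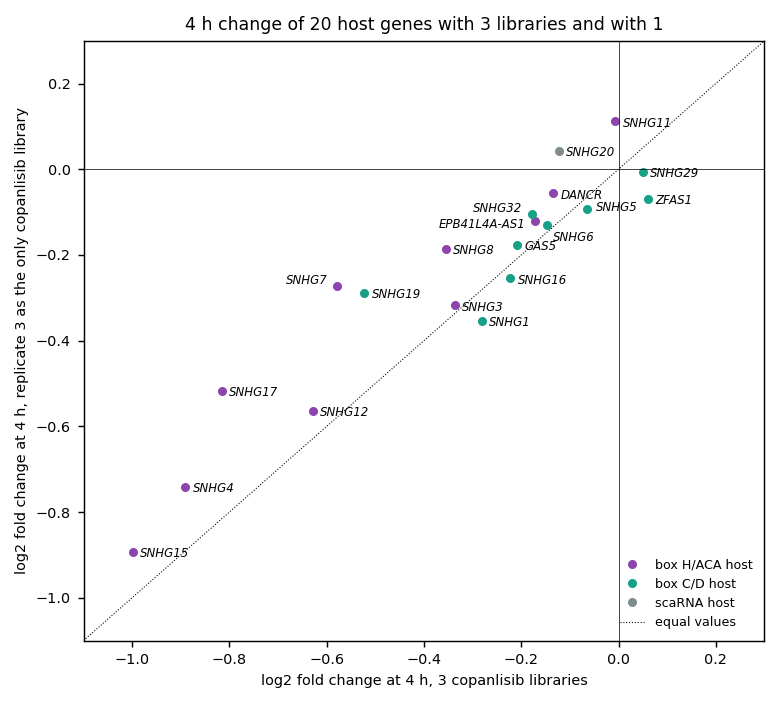
Log2 fold change at 4 h of the 20 host genes with all 3 copanlisib libraries (x axis) and in the replicate 3 fit (y axis), each against 3 DMSO libraries; the dotted line marks equal values and colours give the kind of snoRNA. SNHG15 keeps most of its change (−0.998 and −0.89), while SNHG7 (−0.58 and −0.27) and SNHG17 (−0.82 and −0.52) lie well above the line.

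Host genes also declined over the hours in culture without the inhibitor. Between 12 h and 4 h in DMSO, 20 members were lower and 1 was higher, against 25.4% and 23.2% of all genes, and the median log2 fold change was −0.35 for the members and −0.01 for all genes. Of the 20 well-measured hosts, 18 were lower, and the others were DANCR (58.6 CPM at 12 h and 58.8 CPM at 4 h) and SNHG11 (−0.15 ± 0.12). The largest of these decreases in DMSO were those of SNHG4 (−0.89 ± 0.11), SNHG7 (−0.82 ± 0.10), EPB41L4A-AS1 (−0.78 ± 0.08) and SNHG17 (−0.70 ± 0.08), each with an edgeR adjusted p of at most 1.6e-07. SNHG14 rose (1.31 ± 0.29, edgeR adjusted p = 0.00061) at 1.68 ± 0.41 CPM at 12 h and 0.70 ± 0.24 CPM at 4 h.

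In copanlisib over the same hours 13 members were lower and 1 was higher, against 26.3% and 25.6% of all genes, with a median of −0.18 for the members and −0.01 for all genes. The number of members lower was larger in the replicate 3 fit. The share of all genes lower over these hours in that fit is not given here, so that does not set the members apart. SNHG4 (−0.66 ± 0.12), EPB41L4A-AS1 (−0.64 ± 0.08), SNHG3 (−0.64 ± 0.05) and SNHG16 (−0.59 ± 0.06) had the largest decreases with copanlisib among the well-measured hosts. That order rests on the 4 h copanlisib libraries, since SNHG7 and SNHG17 were at −0.47 and −0.42 with all 18 libraries but at −0.76 and −0.70 in the replicate 3 fit, beside SNHG4 at −0.80. SNHG5 (−0.03 ± 0.05) and SNHG8 (0.04 ± 0.07) were not called in copanlisib over these hours. The comparison over time in each agent shares its libraries with the comparison of the agents, so the values are set side by side without a measure of their likeness.

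**Figure D4:**
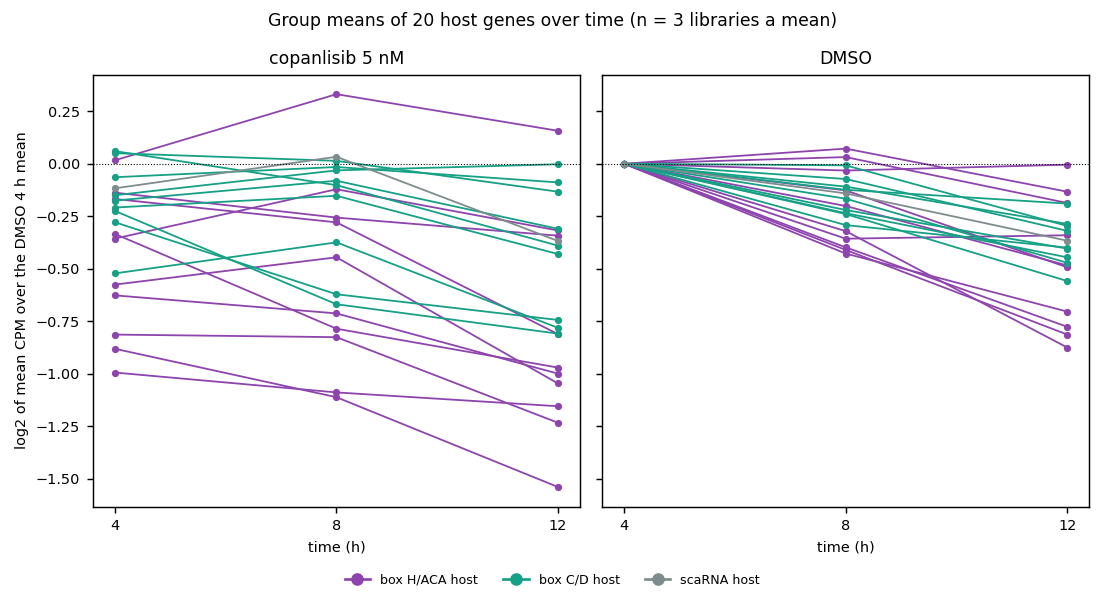
Mean CPM of the 20 host genes in copanlisib (left) and DMSO (right) at 4, 8 and 12 h, as log2 over each gene's DMSO mean at 4 h (n = 3 libraries a mean, no error shown); colours give the kind of snoRNA. In DMSO most lines go down with time, and in copanlisib the lines of SNHG15, SNHG4 and SNHG17 already start more than 0.8 below 0 at 4 h.

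Few reads were counted at the snoRNAs themselves. GENCODE 29 places 136 snoRNA genes with SNORA, SNORD or SCARNA names inside the members. Of these, 91 lie within introns and the rest over exons of the host. None of the 136 lies in GAS5, inside which RefSeq places 10 box C/D snoRNAs and SNORA103, so the count is not complete. Of the 136, 113 had no read in any library, and the highest count of any was 62 reads in a library. Reads over bases shared with a host exon on the same strand count for neither gene, if the annotation used for counting holds the overlap. Many of the 113 were SNORD115 and SNORD116 copies inside SNHG14, which itself had 462 reads in all libraries together. The levels of snoRNAs were thus mostly not measurable here, and a missing count does not show absence. A read at a snoRNA gene may come from the snoRNA or from the unspliced host transcript, which cannot be told apart. Of 7 that could be tested, SNORA73B inside SNHG3 was lower at all 3 times, with a mean of 1.40, 0.995 and 0.984 CPM with copanlisib at 4, 8 and 12 h, against 2.5, 2.82 and 1.86 CPM with DMSO. Its log2 fold changes were −0.82 ± 0.21, −1.50 ± 0.21 and −0.90 ± 0.24 (edgeR adjusted p = 0.0030, 3.3e-06 and 0.0053). The 4 h value was −0.47 (adjusted p = 0.27) in the replicate 3 fit.

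SNORD104, the box C/D snoRNA inside SNHG25, had 11, 15 and 22 reads in copanlisib libraries at 4 h, against 29, 49 and 51 reads in DMSO libraries. Its log2 fold changes were −1.62 ± 0.26 at 4 h (edgeR adjusted p = 1.7e-05), −0.87 ± 0.22 at 8 h (0.0030) and −0.62 ± 0.25 at 12 h (0.063), and the 4 h value was −1.07 (adjusted p = 0.014) in the replicate 3 fit. SNORA26 inside DANCR had 2, 6 and 5 reads in copanlisib libraries at 12 h, against 20, 20 and 16 reads in DMSO libraries, and was lower at that time alone (−2.09 ± 0.47, edgeR adjusted p = 0.0011). SNORD99, SCARNA13, SNORA71B and SNORD12B were called at no time.

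The RNAs that encode the proteins that coat snoRNAs were lower together with many of the host RNAs, and protein was not measured. Of the 8 core proteins of the snoRNA particles (FBL, NOP56, NOP58 and SNU13 of box C/D, DKC1, NHP2, NOP10 and GAR1 of box H/ACA), 6, 7 and 8 were lower at 4, 8 and 12 h and none higher, with medians of −0.33, −0.41 and −0.31. Of all genes 20.7%, 18.3% and 16.5% were lower at these times, which is also the background of the lists that follow, and 17.7%, 14.8% and 13.8% were higher. DKC1, the pseudouridine synthase, averaged 141 ± 3.2 CPM with copanlisib and 189 ± 3.9 CPM with DMSO at 4 h (−0.43 ± 0.05), and was at −0.57 and −0.36 at 8 h and 12 h. NOP56, a scaffold of the box C/D particle and itself a snoRNA host, averaged 217 ± 2.1 CPM with copanlisib and 318 ± 2.2 CPM with DMSO at 4 h (−0.55 ± 0.04), and was at −0.58 and −0.51 later. NOP58 (−0.33, −0.56 and −0.47) and GAR1 (−0.41, −0.54 and −0.41) were lower at all 3 times too, and NOP58 was at −0.51 at 4 h in the replicate 3 fit. FBL, the methyltransferase, was lower at 8 h and 12 h (−0.18 and −0.20). Of the 8, 5 were lower at 4 h in the replicate 3 fit, against 13.1% of all genes.

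Of 11 assembly factors of the particles, 8, 9 and 9 were lower at 4, 8 and 12 h, against 20.7%, 18.3% and 16.5% of all genes, with medians of −0.30, −0.42 and −0.34, and PIH1D1, named after its value was seen, was higher at 8 h (0.19). NOLC1, the nucleolar and Cajal body chaperone of snoRNA particles, averaged 233 ± 5.8 CPM with copanlisib and 357 ± 9.3 CPM with DMSO at 4 h, and its log2 fold changes were −0.62 ± 0.04, −0.90 ± 0.04 and −0.74 ± 0.04 (edgeR adjusted p = 3.5e-12, 3.6e-15 and 1.7e-13). NUFIP1, a box C/D assembly factor, was at −0.44, −0.72 and −0.67, with a 4 h value of −0.67 in the replicate 3 fit. NAF1, a box H/ACA assembly factor, was at −0.40, −0.57 and −0.34, and RUVBL1, an ATPase of the assembly machinery, at −0.38, −0.57 and −0.45. Of the 11, 7 were lower at 4 h in the replicate 3 fit.

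Protein-coding genes that host snoRNAs moved in both directions. Of 58, 22, 28 and 21 were lower and 3, 4 and 8 higher at 4, 8 and 12 h, with medians of −0.09, −0.12 and −0.05, and in the replicate 3 fit 19 were lower and 2 higher at 4 h. Of these hosts 37.9%, 48.3% and 36.2% were lower, against 20.7%, 18.3% and 16.5% of all genes, and 5.17%, 6.9% and 13.8% were higher, against 17.7%, 14.8% and 13.8% of all genes. WDR43 (−0.71, −0.81 and −0.62), PPAN (−0.97, −0.50 and −0.41), NOP56 and NCL (−0.34, −0.69 and −0.53), which all act in ribosome biogenesis, had the largest decreases averaged over the times. Of 64 tested protein-coding genes with a TOP motif, mostly ribosomal proteins and translation factors, 17, 2 and 1 were lower and 8, 5 and 18 higher, with medians of −0.02, 0.05 and 0.09. As shares of the list, 26.6%, 3.12% and 1.56% were lower and 12.5%, 7.81% and 28.1% higher. The 17 at 4 h rested on copanlisib replicates 1 and 2, because 0 were lower and 1 was higher in the replicate 3 fit. Among TOP genes VIM, an intermediate filament gene, was at 0.22 ± 0.04 and 0.30 ± 0.04 at 8 h and 12 h, RPL13A at 0.19 ± 0.05 and 0.17 ± 0.05, and NOP53 at 0.25 ± 0.06 and 0.34 ± 0.06, whereas NPM1, a nucleolar chaperone, was at −0.33 ± 0.06 and −0.32 ± 0.06. NOP53 was called lower at 4 h with all 18 libraries, but its 4 h value was 0.03 in the replicate 3 fit.

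**Figure D5:**
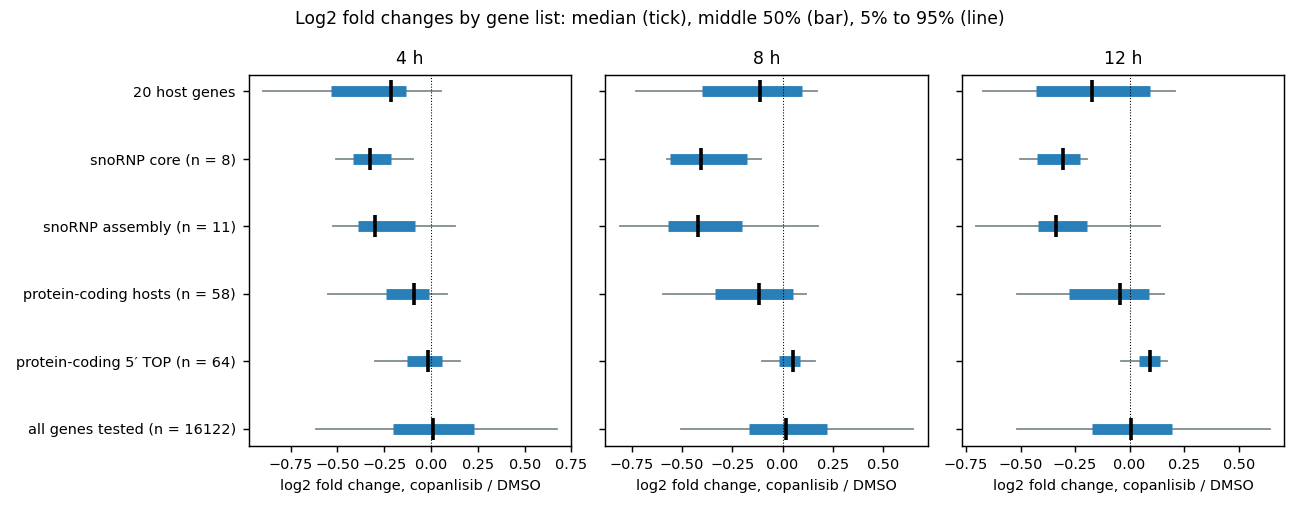
Log2 fold changes (copanlisib over DMSO) at 4, 8 and 12 h for the 20 well-measured host genes, 4 related lists and all 16122 genes tested; the tick is the median, the bar the middle 50% and the line the 5% to 95% range. The medians of the snoRNP core (−0.33, −0.41 and −0.31) lie left of those of the protein-coding TOP genes (−0.02, 0.05 and 0.09) at each time.

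Regulators of TOP RNAs and factors of nonsense-mediated decay were counted in the same way. Of 12 genes that control TOP RNAs, 7, 9 and 6 were lower and 1, 0 and 0 higher at 4, 8 and 12 h, with medians of −0.14, −0.23 and −0.13, and in the replicate 3 fit 6 were lower and 1 higher at 4 h. EIF4E, the cap-binding protein, was at −0.54 ± 0.06, −0.57 ± 0.06 and −0.46 ± 0.06, and EIF4EBP1, its inhibitor, at −0.43 ± 0.07, −0.43 ± 0.07 and −0.64 ± 0.07, with a 4 h value of −0.25 (adjusted p = 0.029) in the replicate 3 fit. LARP1B and LARP4, RNA-binding proteins of the La-related family, were lower at all 3 times (−0.48, −0.55 and −0.40 for LARP1B, and −0.44, −0.46 and −0.40 for LARP4). Of 14 nonsense-mediated decay factors, 3 were lower at each time (21.4%, against 20.7%, 18.3% and 16.5% of all genes) and 1, 2 and 1 were higher (7.14%, 14.3% and 7.14%, against 17.7%, 14.8% and 13.8%), with medians of −0.0057, −0.06 and −0.03. The share lower was near that of all genes. EIF4A3 and RBM8A, core proteins of the exon junction complex, were lower at all 3 times (−0.30, −0.22 and −0.18 for EIF4A3, and −0.19, −0.32 and −0.17 for RBM8A). MAGOH, the partner of RBM8A, was lower at 8 h (−0.23), and SMG9, a regulator of the decay kinase SMG1, was higher at 8 h (0.26). In the replicate 3 fit both were called at 4 h as well, MAGOH at −0.25 and SMG9 at 0.26.

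Of 10 genes that overlap a member or lie in the same stretch of chromosome, 6, 3 and 3 were lower and 0, 1 and 0 higher at 4, 8 and 12 h, with medians of −0.21, −0.07 and 0.02, against 20.7%, 18.3% and 16.5% of all genes lower. In the replicate 3 fit 4 were lower at 4 h, with a median of −0.10. SLC3A2, the heavy chain of an amino acid transporter that lies beside SNHG1, averaged 96.8 ± 9.4 CPM with copanlisib and 184 ± 13 CPM with DMSO at 4 h, and was at −0.93 ± 0.06, −0.52 ± 0.06 and −0.62 ± 0.07. RCC1, described above beside SNHG3, was lower at all 3 times, and TRNAU1AP, which touches SNHG12 over 8 exon bases on the other strand, was higher at 8 h (0.22). RNPS1, a splicing factor gene in the same stretch of chromosome 16 as SNHG19 but not next to it, was at −0.26 ± 0.04, −0.19 ± 0.04 and −0.21 ± 0.04, with a 4 h value of −0.16 in the replicate 3 fit. ZNFX1, which lies opposite ZFAS1, was lower at 4 h (−0.27 ± 0.04, edgeR adjusted p = 1.6e-05) and not called later, whereas ZFAS1 was not called at any time. EPB41L4A was not called at any time, as EPB41L4A-AS1 was not.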

How the data were processed

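RNA-seq of HAIR-M cells was used in 18 libraries (copanlisib or DMSO for 4, 8 or 12 h, 3 each). The authors deposited a table of raw read counts per gene for each library, in the layout of STAR's gene counts, with an unstranded and 2 stranded columns. CASAVA 1.7, STAR 2.5.2b and hg38 are named in the submitters' processing notes; the annotation release was not given in the sources used here. Column 4 was used because it held 94.3 to 95.3% of the strand-assigned reads, although the labels name a TruSeq kit that is not described as stranded. The summary rows that name no gene stayed out of totals and tests: reads without a gene made up 10.0 to 13.0%, ambiguous reads 2.04 to 2.45%, multimapped reads 9.21 to 10.1% and unmapped reads 1.74 to 8.73%.

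Symbols and exons came from GENCODE 29 and the gene tables given with the genome, and starts and host kinds from RefSeq (GRCh38.p14). Genes were filtered with filterByExpr (minimum count 10), leaving 16122 of 35239 genes with a read. Counts were scaled by TMM and tested with edgeR 4.0.16 in R 4.3.3 (glmQLFit and glmQLFTest on all 18 libraries, 2-sided, Benjamini-Hochberg over all genes tested, threshold 0.05). CPM use TMM library sizes. The common BCV (biological coefficient of variation) came to 0.05. The fit was checked on counts simulated with the fitted spread of each gene. No simulated library was set apart, so the check does not cover the 4 h copanlisib libraries that differed from each other. Chi-square statistics per gene between replicates were 1.52 to 2.94, except 15.8 and 19.9 between 4 h copanlisib replicate 3 and the others, so no library was a duplicate.

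Alternatives were DESeq2 (1.42.0) size factors, no filter, DESeq2, limma-voom (limma 3.58.1), unstranded counts, a replicate block, the 6 libraries of a time alone, replicate 3 as the only 4 h copanlisib library, leaving out each library, and a threshold of 0.01. Members, gene lists and tests were chosen with earlier results of these data known. Text values are given for every member whose mean log2 CPM is 3 or more, and for list genes with the largest mean absolute change among those called, up to 4 a list; PIH1D1, ZNFX1, EPB41L4A and FBL were named after their values were seen.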

Additional observations from a re-analysis of the deposited data

Results flagged for a closer look

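For 5 host genes the copanlisib effect differed between times by a test of the difference itself, either between 12 h and 4 h or over the 3 times. Of the members tested, 10.3% passed upward between 12 h and 4 h, against 8.98% of all genes. Over the 3 times 18.6% of all genes passed, so these counts do not set the host genes apart. The effect at 12 h minus that at 4 h was 0.31 for SNHG32 (edgeR adjusted p = 0.022, and 0.017 over the 3 times), 0.27 for SNHG5 (0.017 and 0.028) and 0.33 for SNHG6 (0.028 and 0.055). For SNHG7 it was 0.35 (0.089 and 0.014) and for SNHG17 0.29 (0.099 and 0.029), which passed over the 3 times alone. In the replicate 3 fit, the difference between 12 h and 4 h was called for SNHG5 (0.30) and not for SNHG32 (0.24), SNHG6 (0.31), SNHG7 (0.04) or SNHG17 (−0.01).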

How the results depend on the processing

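Over 27 alternatives a time, the members lower with copanlisib numbered 9 to 16 at 4 h, 8 to 10 at 8 h and 8 to 11 at 12 h. The shares of all genes called in each setting are not given beside the counts in this paragraph, so these counts do not set the members apart. The counts of members higher rest on small changes. At 4 h the 1 higher member (SNHG14) became 0 with no filter, DESeq2, limma-voom, unstranded counts, the 6 libraries of that time or a threshold of 0.01. At 8 h the higher count became 4 with the 6 libraries of that time or in the replicate 3 fit, and 0 at the stricter threshold. At 12 h it became 5 and 4 in the same pair of settings. For 12 h against 4 h in copanlisib it became 0 by DESeq2 and at the stricter threshold. The upward interactions between 12 h and 4 h numbered 1, with 1 downward, in the replicate 3 fit, and 0 upward at the stricter threshold. The interaction over 3 times numbered 1 and 0 in these settings. Causes were not tested.

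Leaving out 1 library at a time gave 0 to 1 higher members at 4 h, 0 to 4 at 8 h, 0 to 4 at 12 h and 0 to 2 over time in copanlisib. It gave 0 to 10 upward and 0 to 1 downward interactions between 12 h and 4 h, and 0 to 14 over the 3 times. The shares of all genes in these fits are not given beside those counts. The 8 h median ranged from −0.057 to 0.018, and it was 0.018 without copanlisib replicate 3 of 8 h.

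The replicate numbers do not pair the libraries: same-numbered copanlisib and DMSO libraries had deviations from their group means that correlated between −0.03 and 0.10. With the replicate number as a block, 12, 8 and 8 members were lower and 1, 1 and 3 higher at 4, 8 and 12 h. The added one at 12 h was SNHG6 (0.18, edgeR adjusted p = 0.041), and 6 members passed over the 3 times. The shares of all genes called in the blocked fit are not given here, so its counts do not set the members apart.

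Over time in DMSO the calls of SNHG6, SNHG8, SNHG9 and SNHG21, and in copanlisib those of SNHG20 and DANCR, were lost when some single libraries were left out. Limits: 3 libraries a group, a single cell line and a single dose, host genes that overlap others, and snoRNA genes with at most 62 reads.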
